A study of Homo sapiens with 6 samples.

Results

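The genes described here are those of sphingosine 1-phosphate signalling and turnover: the 5 receptor genes S1PR1, S1PR2, S1PR3, S1PR4 and S1PR5, the kinase genes SPHK1 and SPHK2, the lyase gene SGPL1 and the phosphatase gene SGPP1. They were found by symbol, and all 9 of 9 had a row among the 58233 gene identifiers of the count table. The family was chosen by the S1PR3 fold change between the groups, which stood among the larger decreases in an earlier look at the same libraries, and the values of the other 8 were open to view as well. The group differences of all 9 members are therefore given as a description, with standard errors but no p-values, and nothing is supported by them. Whether a member lay past the threshold of a fit across all genes is stated in the same sense.

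Polyadenylated RNA was sequenced from OCI-AML2, an established human cell line of acute myeloid leukemia, once the cells had been edited by CRISPR. The 3 libraries labelled NT control came from OCI-AML2 cells that received a non-targeting guide, and the 3 labelled IKZF1-ko from OCI-AML2 cells in which IKZF1, the gene of the zinc-finger transcription factor Ikaros, was targeted. The labels name no drug, time point or further allele for either group, and both were grown in the same serum-containing medium. The design text speaks of 3 lines per group and the extraction protocol of triplicates, so separate clones, cultures and repeat extractions cannot be told apart, and errors and p-values here cover only library-to-library spread, possibly technical.

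Sphingosine 1-phosphate is a lipid messenger made inside cells by the sphingosine kinases and exported to act on G protein-coupled receptors of the same or neighbouring cells. It is removed by dephosphorylation to sphingosine, which can return to ceramide, or by irreversible cleavage by the lyase. In blood it is known for guiding lymphocytes out of lymphoid organs along a concentration gradient, and its receptors differ in the G proteins they use and in the blood cells that carry them.

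The libraries held 11300519 to 18214328 counts. IKZF1 mRNA was not lower in any library labelled IKZF1-ko (420.4, 426 and 436 CPM, read counts scaled by library size, in replicates 1, 2 and 3) than in NT control (331, 291 and 334 CPM), so mRNA does not check the labels, and directions below are those of the libraries so labelled. On the first principal component, with 67.6% of the variance, NT control replicate 2 and IKZF1-ko replicate 1 (scores 39.5 and 50.1) stood apart from the other 4 libraries (-29.1 to -16.3). Each member is therefore given in every library, and its fold change in 3 edgeR fits: on group alone in 6 libraries, on group in the 4 libraries that lay together, and in 6 libraries with a term for the library set, that is, which side of this component a library lay on. The term thus rests on these counts themselves. On the log2 scale IKZF1 itself differed by 0.42 (SE 0.099) on group alone, 0.37 (SE 0.041) in the 4 libraries and 0.43 (SE 0.047) with the term. It lay past the threshold, as higher in IKZF1-ko, in the latter pair and not on group alone. Of 8 myeloid markers CD34 was at 0, KIT and ANPEP were near 0, and the summed level was 823 to 963 CPM in NT control and 809 to 893 CPM in IKZF1-ko. Of the 5 markers tested, LYZ fell (log2 fold change -0.36, edgeR adjusted p = 1.2e-04) and CSF3R rose (0.17, adjusted p = 0.037) with the library-set term, both also called in the 4 libraries, and their part in the results below was not tested. The 5 endothelial and stromal markers, looked at because such cells carry several of these receptors, summed to 0.254 to 0.545 CPM and 0.436 to 0.650 CPM. The summed level reached at most 1.05 CPM for the T cell list, 1.42 CPM for the B cell list, 0.273 CPM for the erythroid list and 2.40 CPM for the megakaryocyte list.

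S1PR4 was the main receptor transcript in these cells. Levels between genes are compared per length, as TPM, counts per kilobase of merged annotated exons scaled to the same total in each library. In NT control the order was S1PR4 at 67.2 ± 14.1 TPM, SGPL1 at 18.22 ± 3.99 TPM, SPHK2 at 10.3 ± 2.86 TPM, SGPP1 at 6.73 ± 0.917 TPM, S1PR3 at 5.13 ± 1.09 TPM, SPHK1 at 3.98 ± 1.67 TPM, S1PR5 at 1.08 ± 1.15 TPM and S1PR2 at 0.736 ± 0.582 TPM (SD, n = 3 libraries each). S1PR1 had no counts. The order from S1PR4 down to SPHK1 held within every NT control library. Taken over the NT control libraries together, the ranges of S1PR4, SGPL1 and SPHK2 lay apart, whereas those of neighbours from SPHK2 down to S1PR2 overlapped. S1PR4 made up 88.5%, 91.7% and 91.3% of the summed receptor TPM across NT control replicates 1 to 3, against 85.8%, 93.8% and 89.99% in IKZF1-ko. S1PR3 made up 4.27% to 9.20% in NT control and 4.18% to 5.94% in IKZF1-ko. The merged exons of S1PR3 are long, 13578 bases against 8505 bases for its longest coding transcript in the annotation's basic set. By such transcript lengths S1PR3 was at 8.18 ± 1.74 TPM in NT control, above SPHK1 (7.86 ± 3.30 TPM) and SGPP1, while S1PR4, SGPL1 and SPHK2 remained the 3 highest in that order.

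S1PR3 (ENSG00000213694, GRCh38 chromosome 9, 88990863 to 89005010, plus strand) encodes a receptor that couples to several G protein classes and has been tied to inflammatory signalling and differentiation in myeloid cells. It had 252, 215 and 236 counts across NT control replicates 1 to 3, or 21.4, 14.7 and 20.6 CPM. In IKZF1-ko it had 139, 167 and 202 counts, or 9.27, 9.11 and 11.9 CPM. Every IKZF1-ko library was thus below every NT control library, and the nearest pair was IKZF1-ko replicate 3 with NT control replicate 2. The means were 18.9 ± 3.68 CPM and 10.1 ± 1.58 CPM (SD, n = 3 each). On the log2 scale S1PR3 differed by -0.90 (SE 0.20) on group alone, -1.003 (SE 0.13) in the 4 libraries and -0.90 (SE 0.12) with the library-set term. It lay past the threshold in the latter pair and not on group alone, where it was the 50th lowest fold change of 13028. IKZF1-ko replicate 1 had 0.633 times the S1PR3 level of NT control replicate 2, its partner in the smaller set, and in the larger set the ratio of means was 0.501. As these are bulk libraries, fewer cells that carry a transcript and less of it per cell cannot be told apart.

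Ikaros binds DNA at sites with the core GGGAA, so the bases before the annotated starts of the members were searched for it on both strands, as a description of sequence only. RefSeq (GRCh38.p14) gave 13 start windows of 250 bases for 8 of the 9 members. The core was found in 5 of the 13, against 59.0% of 35116 windows of all genes, and in 4 of the 8 members, against 63.1% of 27305 genes. The longer form TGGGAA, which contains the core, was in 1 of the 13, a window of S1PR5, against 20.8% of all windows. The first S1PR3 window (chr9:88990613-88990862, plus strand) and the second SPHK1 window (chr17:76384359-76384608, plus strand) are shown, 5′ to 3′, because both genes kept their call with the library-set term under each alternative run, and neither window overlaps an annotated exon of its gene. Capitals mark the core.
S1PR3: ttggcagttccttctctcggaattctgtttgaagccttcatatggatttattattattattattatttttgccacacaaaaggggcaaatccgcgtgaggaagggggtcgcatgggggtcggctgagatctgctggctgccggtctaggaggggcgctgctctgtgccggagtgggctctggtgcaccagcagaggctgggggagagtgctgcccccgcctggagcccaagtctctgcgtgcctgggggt
SPHK1: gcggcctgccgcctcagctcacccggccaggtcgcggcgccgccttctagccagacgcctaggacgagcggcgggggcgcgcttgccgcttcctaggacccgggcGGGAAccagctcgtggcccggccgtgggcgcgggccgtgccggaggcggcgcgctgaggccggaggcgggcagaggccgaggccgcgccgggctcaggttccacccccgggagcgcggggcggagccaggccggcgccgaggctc
No GGGAA or its reverse complement was present in either S1PR3 window, and the SPHK1 window shown held 1, starting 145 bases before the start. The other 2 SPHK1 windows held none.

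S1PR4 (ENSG00000125910, chromosome 19, 3172346 to 3180332, plus strand) encodes a receptor found mainly on blood and lymphoid cells. It was at 25.2, 38.5 and 27.9 CPM across NT control replicates 1 to 3, against 22.8, 25.03 and 22.1 CPM in IKZF1-ko. The groups did not overlap, but NT control replicate 1 and IKZF1-ko replicate 2 were almost level, and NT control replicate 2 was far above the rest. The log2 fold change was -0.39 (SE 0.18) on group alone, -0.17 (SE 0.097) in the 4 libraries and -0.37 (SE 0.11) with the library-set term, and only the last lay past the threshold. The difference was larger in the smaller set, where IKZF1-ko replicate 1 had 0.593 times the level of NT control replicate 2, while in the larger set the ratio of means was 0.889. With the term, leaving out NT control replicate 2 gave -0.17 and lost the call, as did leaving out IKZF1-ko replicate 1 (-0.17), NT control replicate 3 (-0.40) or IKZF1-ko replicate 3 (-0.37). The runs without NT control replicate 2 and without IKZF1-ko replicate 1 both in effect repeat the contrast of the 4 libraries. On group alone the value was -0.18 without NT control replicate 2, and in the 4 libraries it was -0.093 without NT control replicate 3 and -0.083 without IKZF1-ko replicate 3, or -0.26 without IKZF1-ko replicate 2.

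S1PR5 (ENSG00000180739, chromosome 19, 10512742 to 10517931, minus strand), the receptor known for the exit of natural killer cells and patrolling monocytes from tissue, was scarce. It had 7, 27 and 1 counts across NT control replicates 1 to 3, against 57, 12 and 24 in IKZF1-ko, or 0.593, 1.84 and 0.0874 CPM against 3.80, 0.654 and 1.42 CPM. The highest library of each group was the one in the smaller set, and the groups overlapped over all 6 libraries. They did not overlap in the larger set, as for 54.7% of the genes tested there. In the smaller set, with 1 library per group, overlap is not possible. The log2 fold change was 1.14 (SE 0.93) on group alone and 1.22 (SE 0.39) with the library-set term, past the threshold in the latter only, and the gene was below the filter on low counts in the 4 libraries. That call did not hold without any 1 of NT control replicates 1 (1.39), 2 (1.55) and 3 (0.97) or IKZF1-ko replicates 1 (1.55) and 3 (1.01), nor with DESeq2 (1.32), upper-quartile scaling (1.23) or a surrogate variable used instead (0.93). The runs without NT control replicate 2 and without IKZF1-ko replicate 1 both in effect rest on the contrast of the 4 libraries. On group alone the value was 0.23 without IKZF1-ko replicate 1 and 2.46 without NT control replicate 2. In both groups S1PR5 was higher in the libraries that stood apart, 5.41 times the mean of the other NT control libraries and 3.67 times that of the other IKZF1-ko libraries.

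S1PR2 and S1PR1 were at or near the lower limit. S1PR2 (ENSG00000267534, chromosome 19, 10221433 to 10231331, minus strand), which signals through the G12 and G13 class and holds back cell migration, had 8, 20 and 2 counts in NT control and 13, 6 and 6 in IKZF1-ko. It shares 83 exon bases with DNMT1 on the same strand, so these few reads are uncertain. Its log2 fold change was -0.58 (SE 0.72) on group alone and -0.50 (SE 0.46) with the library-set term, neither past the threshold. S1PR1 (ENSG00000170989, chromosome 1, 101236865 to 101243713, plus strand), the receptor of lymphocyte egress, had 0 of 88199849 counts over the 6 libraries. A count of 0 allows up to 3 counts, or 0.164 to 0.262 CPM depending on the library, by counting error only. DNM2, a dynamin that helps internalise the receptor, was at 176 and 187 CPM (0.09, edgeR adjusted p = 0.25). CD69, which draws S1PR1 from the cell surface, was at 112 ± 9.63 CPM in NT control against 115.0 ± 10.3 CPM in IKZF1-ko, while KLF2, a transcription factor that drives S1PR1, was below the filter at 0.239 ± 0.265 and 0.151 ± 0.169 CPM.

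**Figure D1:**
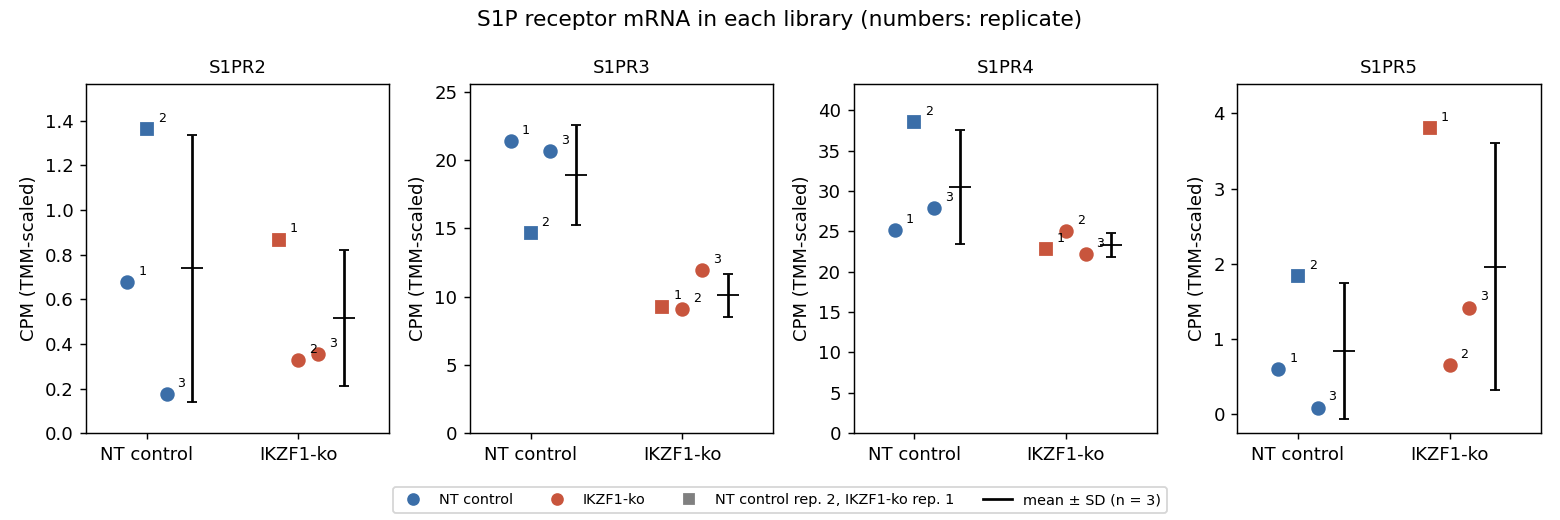
Level of S1PR2, S1PR3, S1PR4 and S1PR5 in each library (vertical axes, CPM with TMM scaling), by group; points are libraries numbered by replicate, squares the 2 libraries that stood apart, and bars mean ± SD. S1PR3 lies at 14.7 to 21.4 CPM in NT control and 9.11 to 11.9 CPM in IKZF1-ko, and the squares are the highest points of each group for S1PR2 and S1PR5.

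Of the enzymes that make sphingosine 1-phosphate, SPHK1 had the higher mean in the libraries labelled IKZF1-ko, while SPHK2 was at like levels. SPHK1 (ENSG00000176170, chromosome 17, 76376584 to 76387860, plus strand) encodes the kinase that moves from the cytosol to the plasma membrane on stimulation. It had 75, 38 and 61 counts across NT control replicates 1 to 3, against 83, 201 and 139 in IKZF1-ko, or 6.36, 2.59 and 5.33 CPM against 5.54, 10.96 and 8.21 CPM. The lowest library of each group was the one that stood apart. It had 0.443 times the mean of the other NT control libraries and 0.578 times that of the other IKZF1-ko libraries. Over 6 libraries the groups overlapped, because IKZF1-ko replicate 1 lay below NT control replicate 1. In the larger set the groups did not overlap, as for 54.7% of all genes tested there, and the ratio of means was 1.64. The smaller set has 1 library per group, so overlap is not possible, and IKZF1-ko replicate 1 had 2.14 times the level of NT control replicate 2. The log2 fold change was 0.80 (SE 0.39) on group alone, 0.72 (SE 0.18) in the 4 libraries and 0.81 (SE 0.17) with the library-set term, past the threshold in the latter pair. In the 4 libraries the call was lost without NT control replicate 3 (0.60) or IKZF1-ko replicate 2 (0.49) and with DESeq2 (0.71). With the library-set term it held with each library left out. Without NT control replicate 2 or IKZF1-ko replicate 1 that fit in effect repeats the contrast of the 4 libraries (0.72 in both runs). On group alone the value was 0.498 without NT control replicate 2. SPHK1 shares 59 of its 4416 exon bases with PRPSAP1 on the opposite strand.

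SPHK2 (ENSG00000063176, chromosome 19, 48619291 to 48630717, plus strand) encodes the kinase found also in the nucleus and at mitochondria. It was at 18.4, 11.8 and 19.9 CPM in NT control against 11.8, 19.5 and 16.5 CPM in IKZF1-ko. The low library of each group was the one that stood apart, and both were at the same level, with a ratio of 1.00. The log2 fold change was -0.06 (SE 0.26) on group alone, -0.09 (SE 0.11) in the 4 libraries and -0.06 (SE 0.10) with the library-set term, none past the threshold. SPHK2 shares exon bases on the opposite strand with RPL18, a ribosomal protein gene (246 bases), with DBP (661 bases) and with an antisense transcript (678 bases), so its level is uncertain if the counting ignored strand.

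The genes of the breakdown steps did not pass the threshold in any of the 3 fits. SGPL1 (ENSG00000166224, chromosome 10, 70815961 to 70881173, plus strand) encodes the lyase of the endoplasmic reticulum that ends the pathway. It was at 39.7, 28.7 and 42.5 CPM in NT control against 25.7, 40.1 and 39.6 CPM in IKZF1-ko, lowest in the libraries that stood apart. Its log2 fold change was -0.07 (SE 0.23) on group alone, -0.04 (SE 0.076) in the 4 libraries and -0.08 (SE 0.070) with the library-set term. SGPP1 (ENSG00000126821, chromosome 14, 63684214 to 63728039, minus strand) encodes a phosphatase that returns sphingosine 1-phosphate to sphingosine. It was at 6.44, 5.25 and 6.47 CPM in NT control against 4.87, 4.58 and 5.96 CPM in IKZF1-ko, with 73 to 101 counts per library. Its log2 fold change was -0.23 (SE 0.20), -0.30 (SE 0.19) and -0.24 (SE 0.16) in the same order of fits. Without IKZF1-ko replicate 2 the values were -0.16, -0.12 and -0.11, and without IKZF1-ko replicate 3 they were -0.35, -0.49 and -0.33.

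**Figure D2:**
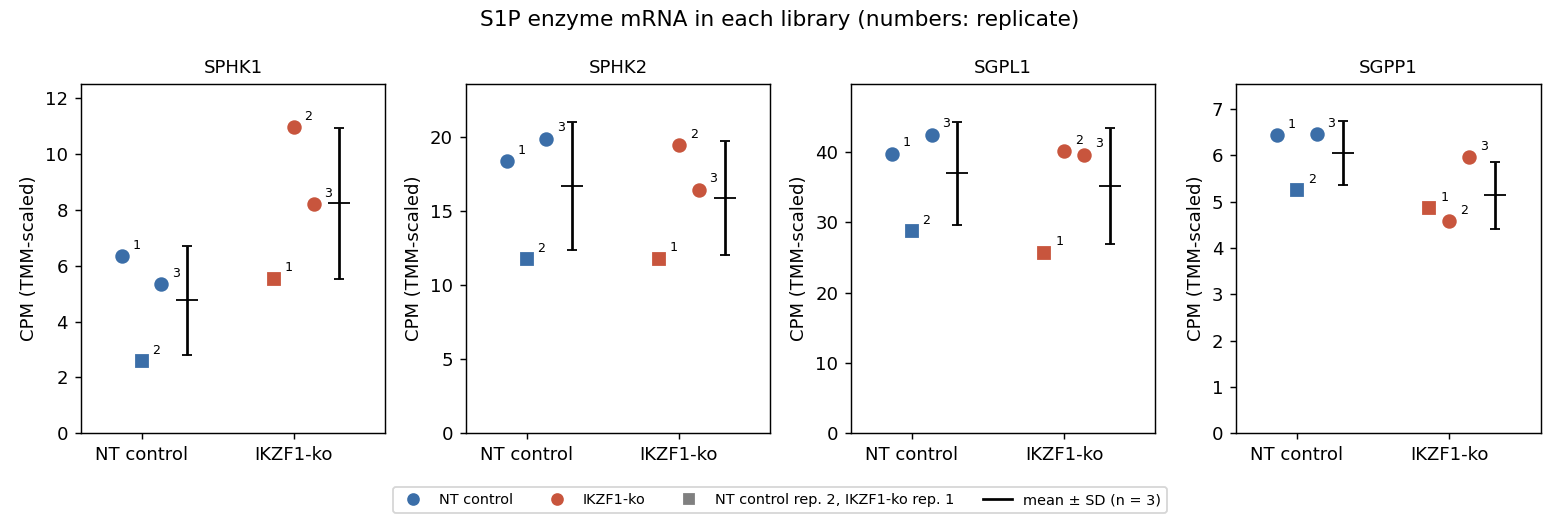
Level of SPHK1, SPHK2, SGPL1 and SGPP1 in each library (vertical axes from 0, CPM with TMM scaling), by group; points are libraries numbered by replicate, squares the 2 libraries that stood apart, and bars mean ± SD. For SPHK1, SPHK2 and SGPL1 the squares are the lowest point of both groups, and for SPHK1 the IKZF1-ko points reach 10.96 CPM against at most 6.36 CPM in NT control.

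Within a library, a ratio of counts does not depend on scaling. These ratios were chosen after the values had been seen and are a description. SPHK1 held 25.7% (95% exact binomial interval 20.8% to 31.1%), 18.0% (13.1% to 23.9%) and 21.1% (16.6% to 26.3%) of the SPHK1 and SPHK2 counts across NT control replicates 1 to 3. In IKZF1-ko it held 31.9% (26.3% to 37.96%), 36.02% (32.0% to 40.2%) and 33.3% (28.8% to 38.0%). The groups did not overlap, although the intervals of NT control replicate 1 and IKZF1-ko replicates 1 and 3 did, and the mean ratio was 0.278 ± 0.0636 and 0.510 ± 0.0482 SPHK1 counts per SPHK2 count (SD, n = 3 each). SPHK1 counts per SGPL1 count did not overlap either, at 0.125 ± 0.0348 and 0.232 ± 0.0359. As both ratios hold the same SPHK1 counts, they are not separate observations. How often ratios of other gene pairs do not overlap was not counted. Among single genes tested in 6 libraries, 9.35% did not overlap. SPHK2 counts per SGPL1 count were level, at 0.448 ± 0.0319 and 0.454 ± 0.0351, also in the libraries that stood apart (0.411 and 0.460). S1PR3 counts per S1PR4 count overlapped, at 0.849, 0.381 and 0.740 in NT control and 0.406, 0.364 and 0.539 in IKZF1-ko, NT control replicate 2 lying among the IKZF1-ko values.

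**Figure D3:**
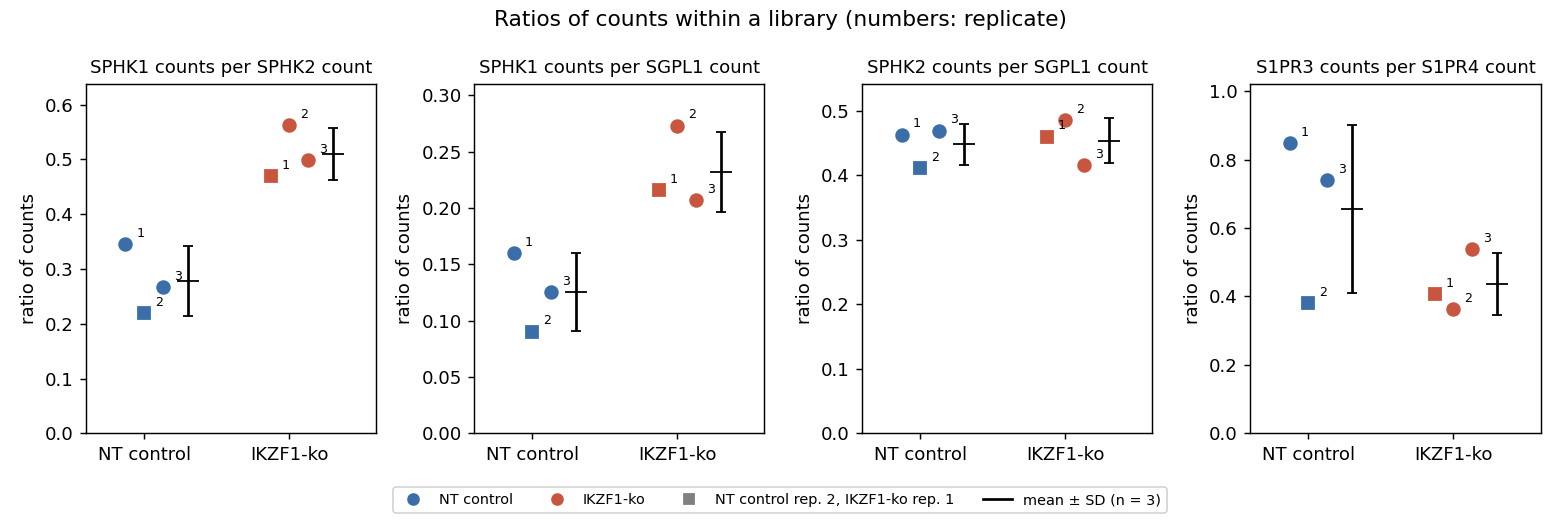
Ratios of the counts of 2 genes within each library (vertical axes from 0), by group; points are libraries numbered by replicate, squares the 2 libraries that stood apart, and bars mean ± SD. SPHK1 per SPHK2 is 0.220 to 0.346 in NT control and 0.469 to 0.563 in IKZF1-ko, whereas S1PR3 per S1PR4 overlaps.

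Counted over the fits, 8 of the 9 members passed the filter on low counts in 6 libraries and 6 in the 4 libraries. On group alone 0 of the 8 lay past the threshold, as did 0% of the 13028 genes tested by edgeR, of which 456 had an unadjusted p below 0.05. DESeq2 called 71 genes on group alone, S1PR3 (log2 fold change -0.91) among them, and limma-voom called 1. In the 4 libraries 2 of 6 did (S1PR3 lower, SPHK1 higher), beside 14.7% of all genes (7.64% higher, 7.1% lower). With the library-set term 4 of 8 did (S1PR3 and S1PR4 lower, S1PR5 and SPHK1 higher), beside 13.5% of all genes (6.93% higher, 6.62% lower). Over 6 libraries the ranges of 2 members, S1PR3 and S1PR4, lay wholly below those of NT control, as in 4.05% of all genes, and 0 lay wholly above, as in 5.3%, together 9.35%. Over the 4 libraries the ranges of S1PR3, S1PR4, SPHK1 and SGPP1 did not overlap, 4 of the 6 tested there, beside 54.7% of all genes. As the contrast was known when the family was chosen, nothing is read from these counts. The 3 fits share libraries and are not separate evidence.

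**Figure D4:**
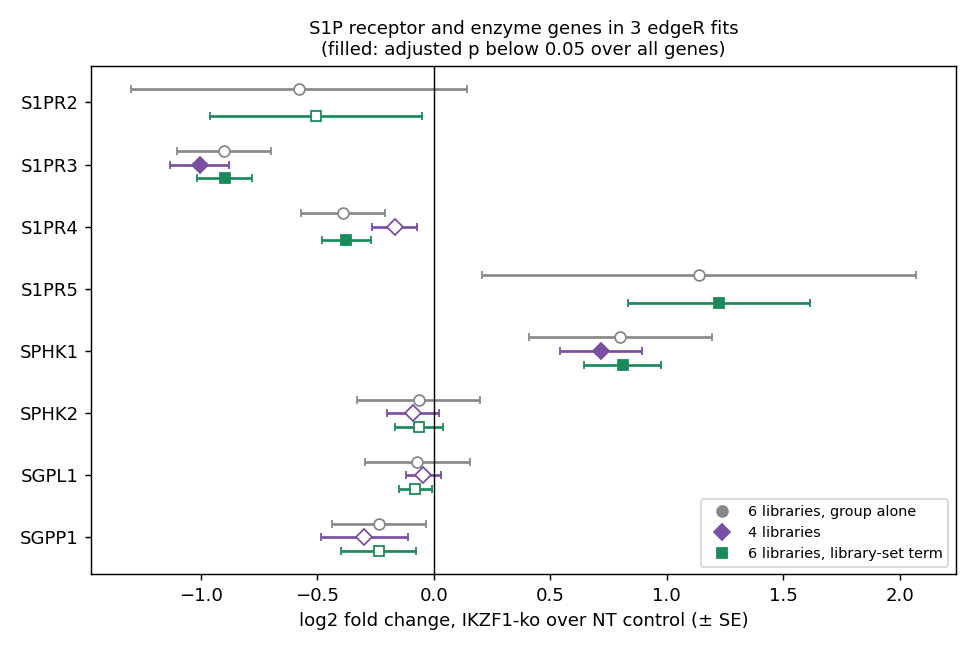
Log2 fold change of IKZF1-ko over NT control (horizontal axis, ± SE) for the 8 members tested, in 3 edgeR fits; filled symbols have an adjusted p below 0.05 over all genes tested. S1PR3 lies between -1.003 and -0.90 and SPHK1 between 0.72 and 0.81 in the fits shown, while SPHK2 and SGPL1 lie within 0.1 of 0.

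The rest of the pathway was read from 11 lists of 90 genes, 70 of which were tested in 6 libraries. They were listed by function, although earlier results of these libraries were known. Unless said otherwise, p-values are edgeR adjusted p over all 13028 genes, with the library-set term in the model. On group alone 0 of the 70 were called. With the term 6 rose and 7 fell, and in the 4 libraries 6 rose and 8 fell, beside 13.5% and 14.7% of all genes called. The median log2 fold change over the 70 genes was 0.01, against 0.002 over all genes.

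Export and the other steps of sphingosine 1-phosphate removal held 0 calls in either fit. SPNS2, an exporter of sphingosine 1-phosphate, was at 31.4 ± 2.69 CPM in NT control against 32.6 ± 1.20 CPM in IKZF1-ko (log2 fold change 0.06, adjusted p = 0.68), and shares 139 exon bases with MYBBP1A on the opposite strand. MFSD2B, the exporter of red cells and platelets, had means of 0.0583 and 0.146 CPM. APOM, the carrier protein gene, was at 1.28 ± 0.362 and 1.30 ± 0.161 CPM (0.03, adjusted p = 0.97), and shares 136 exon bases with BAG6 on the opposite strand. Of the 4 other phosphatase genes only PLPP1 was tested (0.08, adjusted p = 0.87), and the second phosphatase gene SGPP2 had a mean of 0.0283 CPM in NT control and 0 in IKZF1-ko. PLPP1 shares 481 exon bases with MTREX on the opposite strand, so the levels of APOM and PLPP1 are uncertain if the counting ignored strand. ALDH3A2, the dehydrogenase that handles the aldehyde released by the lyase, was at 48.1 ± 3.01 and 46.1 ± 4.31 CPM (-0.06, adjusted p = 0.58).

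In the lists of genes that make or use ceramide, 1 of 3 tested ceramidase genes fell, 2 of 12 genes of new ceramide synthesis rose, and 1 of 7 sphingomyelin genes rose and 1 fell. ASAH1, the acid ceramidase of lysosomes that frees sphingosine, fell (log2 fold change -0.26, SE 0.057, adjusted p = 0.0053), from 86.4 ± 22.1 to 71.5 ± 13.4 CPM. Its highest library in each group was the one that stood apart (112 and 86.9 CPM), so the groups overlapped. The ceramide synthase genes CERS2 (0.16, adjusted p = 0.032) and CERS6 (0.18, adjusted p = 0.0297) rose. CERS6 went from 180 ± 9.21 to 203 ± 7.38 CPM without overlap, as for 9.35% of all genes tested in 6 libraries. It was not called in the 4 libraries (0.11, adjusted p = 0.11). SAMD8, a relative of the sphingomyelin synthases, rose from 9.40 ± 2.70 to 13.8 ± 5.91 CPM (0.54, adjusted p = 0.0080), also not called in the 4 libraries (0.39, adjusted p = 0.086). SMPD4, a neutral sphingomyelinase gene, fell (-0.21, adjusted p = 0.0081). It was at 150, 80.9 and 146 CPM in NT control against 71.0, 130 and 123 CPM in IKZF1-ko, so the groups overlapped. In the list of ceramide phosphorylation and glycosylation, B4GALT5, which adds galactose to glucosylceramide, fell (-0.20, adjusted p = 0.0090). The groups overlapped over all libraries for B4GALT5, CERS2 and SAMD8 too. DEGS1, a desaturase of ceramide synthesis, fell in the 4 libraries (-0.29, adjusted p = 0.0015) but not with the term (-0.18, adjusted p = 0.10). CERS2, CERS6, ASAH1 and SMPD4 share exon bases with genes on the opposite strand.

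Among the genes that carry or limit the receptor signal, 3 RGS genes were called with the library-set term. RGS proteins shorten G protein signals by speeding the hydrolysis of GTP. RGS3 was at 1.36, 1.02 and 1.84 CPM across NT control replicates 1 to 3, against 2.74, 3.93 and 3.90 CPM in IKZF1-ko, and rose (log2 fold change 1.33, SE 0.24, adjusted p = 0.0012). RGS10 was at 22.7, 30.9 and 19.7 CPM and 41.8, 31.7 and 31.8 CPM, and rose (0.52, SE 0.079, adjusted p = 2.9e-04). RGS18 was at 53.3, 60.4 and 52.1 CPM and 46.4, 37.9 and 38.0 CPM, and fell (-0.44, SE 0.062, adjusted p = 1.6e-04). The groups did not overlap for any of these, as for 9.35% of all genes tested in 6 libraries. Each was also called in the 4 libraries, which are part of the same 6 and not separate evidence. On group alone they were not called. Of the 14 genes in that list 2 rose and 1 fell, and the kinases GRK2, GRK3, GRK5 and GRK6 and the arrestins ARRB1 and ARRB2 did not pass with the term. GRK2 (0.17, adjusted p = 0.0035) and ARRB1 (0.22, adjusted p = 0.017) rose in the 4 libraries. Of 12 tested G protein, RhoGEF and small GTPase genes 2 fell, GNAQ (-0.21, adjusted p = 0.017) and RAC2 (-0.21, adjusted p = 0.0085). For both the groups overlapped over all libraries. GNA13, the partner of S1PR2 in restraining migration, was at 152 ± 5.46 and 167 ± 10.9 CPM (0.13, adjusted p = 0.073). LPAR6, a receptor for lysophosphatidic acid, rose from 9.16 ± 1.33 to 13.1 ± 1.97 CPM (0.51, adjusted p = 0.0053), 1 of 6 tested related receptor genes.

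**Figure D5:**
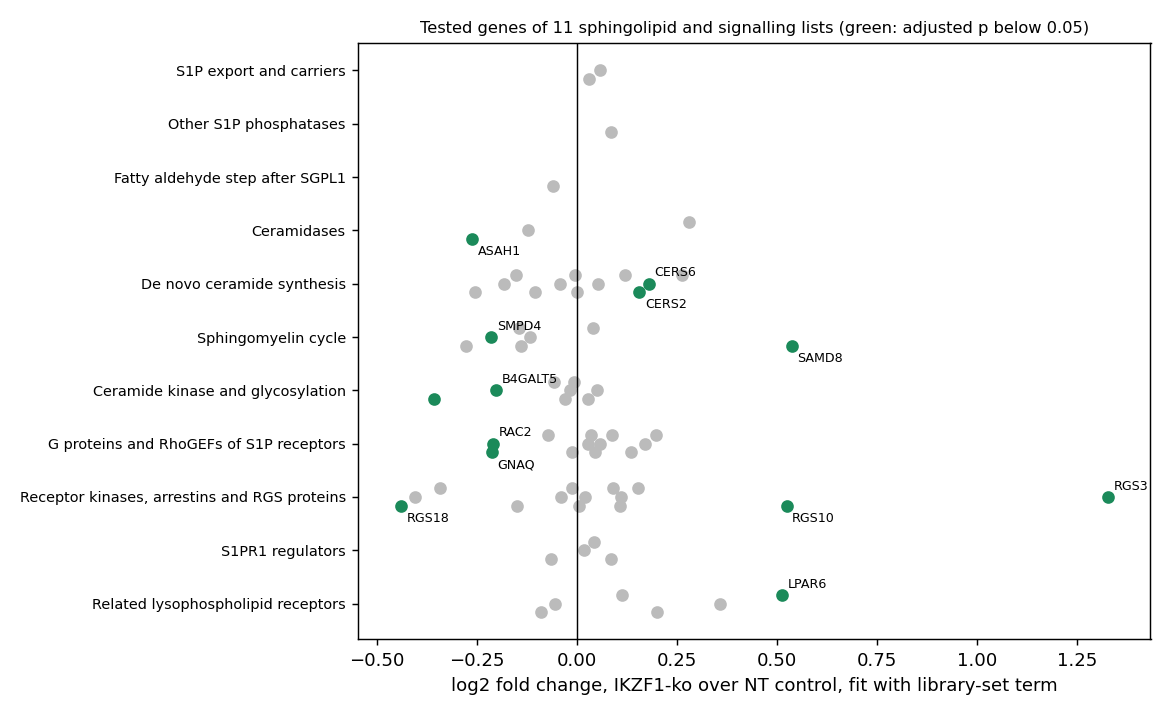
Log2 fold change of IKZF1-ko over NT control (horizontal axis, edgeR with the library set in the model) for the 70 tested genes of 11 pathway lists (rows); green points have an adjusted p below 0.05 over all genes, and those described in the text are named. The called genes lie on both sides of 0, with RGS3 at 1.33 and RGS18 at -0.44.

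The genes with the pattern most like that of a member over the 6 libraries were found by the root mean square difference of centred log2 CPM, among genes with a symbol and a mean of at least 5 CPM. For S1PR3 these were CXCL8 (0.139), CDH24 (0.154), CALR (0.163), FOXA1 (0.181) and TIMP1 (0.192). For SPHK1 they were GIPC1 (0.107), CTNND1 (0.175), HPSE (0.196), PALD1 (0.209) and THBD (0.224). For S1PR4 they were HDAC9 (0.0804), DCPS (0.0888), SERPINE2 (0.0924), FAM135B (0.0934) and MAPK11 (0.101). SGPL1 had closer matches, led by DDX1 (0.0158), and 778 genes lay within 0.1 of it, against 0 for S1PR3 and SPHK1. No member was among the nearest 5 of another, but S1PR1, S1PR2 and S1PR5 lay below 5 CPM and could not be listed.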

How the data were processed

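Read counts per gene of 6 libraries were used as the authors deposited them, as raw counts. The submitters' processing notes list Trimmomatic, STAR and GRCh38. Which counter, strand setting and annotation were used is not given in the sources used here. The table has 0 columns of other samples.

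Members and lists were chosen with earlier results of these data known. Symbols came from a gene name table (57392 identifiers), positions, exon lengths and overlaps from GENCODE release 29 (57895 identifiers). filterByExpr kept 13028 genes (12951 in the 4 libraries). CPM used TMM factors. Groups were compared in edgeR 4.0.16 (R 4.3.3) by its quasi-likelihood test, two-sided, Benjamini-Hochberg adjusted over all genes, threshold 0.05. The test was also run on simulated counts, with the library sets taken as known. That simulation cannot show what follows from taking the sets from the counts themselves. The standard error is the fold change over the square root of F. The library set is the sign of the first principal component of log2 CPM with a prior count of 2. Named were all members and, per list, up to 4 called genes by lowest adjusted p or else the 2 most abundant. Other genes named, LYZ, CSF3R, KLF2, MFSD2B, SGPP2, GNA13, DEGS1 and the GRK and ARRB genes, were chosen after their values were seen. Among the list genes, 1 called gene is not reported here by name. Alternatives used DESeq2 1.42.0, limma 3.58.1 and sva 3.50.0. Total counts of 11300519 to 18214328 limit the precision of intervals and floors, which cover counting error only. The standard errors of fold changes also differed with the fit. For SPHK1 they were 0.39 on group alone, 0.18 in the 4 libraries and 0.17 with the library-set term. Replicate numbers were not used to pair the libraries in the 3 fits, as the labels do not state a pairing.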

Additional observations from a re-analysis of the deposited data

How the results depend on the processing

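On group alone edgeR called 0 genes, also under other scalings, with a replicate block (0 genes) and with each library left out. Without a filter on low counts it called 8, DESeq2 71 and limma-voom 1. The deviations of same-numbered libraries from their group means correlated at -0.655, -0.689 and 0.588 across genes for numbers 1, 2 and 3. The signs follow the split on the first principal component, so these values cannot show whether the numbers pair libraries in some smaller way. In the 4 libraries 1908 genes were called, 825 with DESeq2 and 1089 to 1523 with 1 library left out. With the library-set term 1765 were called, 1159 with DESeq2, 1044 with a surrogate variable and 824 (without IKZF1-ko replicate 3) to 1919 with 1 library left out. The 1919 came without NT control replicate 2 and again without IKZF1-ko replicate 1. Both of these runs in effect repeat the contrast of the 4 libraries and are not separate checks. The cause of the differences between the numbers of calls was not tested. S1PR4 over S1PR3 in NT control was 14.0 per merged exon length, 9.34 per coding transcript length, an alternative added after seeing the data, and 1.72 with no length scaling. S1PR3 kept its direction under every alternative run (-1.20 to -0.75) and its call in the 4 libraries and with the term. SPHK1 kept its direction (0.49 to 1.07), and its call with the term. The family was chosen with the fold changes of both genes known, so this describes the processing and supports nothing. The small differences changed sign. With 1 library left out, SPHK2 ranged from -0.26 to 0.11 on group alone, -0.22 to 0.024 in the 4 libraries and -0.13 to 0.016 with the term (0.028 with the surrogate variable). SGPL1 ranged from -0.22 to 0.11 and from -0.091 to 0.0037 in the first and second fit, and was at 0.0028 with the surrogate variable. S1PR2 ranged from -1.15 to 0.23 on group alone. Depth limits S1PR1, S1PR2 and S1PR5, with 0 to 57 counts per library.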
